A study of Mus musculus with 8 samples.

Results

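The interferon-stimulated genes followed here are 43 mouse genes that code for antiviral effectors, nucleic acid sensors, interferon-inducible GTPases and parts of the interferon signalling machinery. Their signals come from Affymetrix arrays of sorted dendritic cell (DC) progenitors of 3 kinds. A gene was included when it stood on the list and a probe set of the array was annotated to it alone. That held for 37 of the 43 genes. Isg15, Ifi44, Ifi47, Gbp2, Phf11b and Igtp had no such probe set and are not described. Of the 37 genes, 36 passed a filter on low signal, which required at least 2 arrays above that array's own 40th percentile. The same rules left 13356 of 19938 genes in the whole series. Ifit2 failed the filter on every array, with log2 signals between 3.18 and 4.12. Ifit1 and Mx2 passed it through 2 and 3 arrays, none of them from Zeb2hi CDPs, so a low level in those cells was built into their selection.

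All samples came from the bone marrow of mice heterozygous for a Zeb2-GFP fusion reporter, so no group was without the reporter allele. Zeb2 is a transcriptional repressor, and the reporter splits common DC progenitors (CDPs), which give rise to classical and plasmacytoid DCs, into a Zeb2hi and a Zeb2low fraction. Each fraction was measured on 3 arrays. For pre-CD8 DCs, which are committed to become CD8a+ classical DCs (cDC1s), there were 2 arrays. The stated aim was to follow expression along the developmental order of these progenitors. Strain, age, treatment, sort markers and the origin of replicate samples are not given in the labels, so the p-values rest on a spread between samples that may be technical.

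Interferons bind surface receptors that act through the kinases Jak1, Jak2 and Tyk2. Type I and type III interferons activate a transcription complex, ISGF3, that contains Stat2 and Irf9. This complex binds the interferon-stimulated response element (ISRE) in the promoters of antiviral genes, while interferon gamma acts largely through gamma-activated sites. Interferon regulatory factors such as Irf8 also read related elements and steer DC development, and cells can keep a basal level of these genes without infection.

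RefSeq promoters (GRCm38.p6, from 250 bases before the start site to 50 bases after it) were listed for 26 of the 36 genes. A core of the ISRE, the letters GAAA, any 2 bases and GAAA again, was searched on both strands and found for 11 of the 26 genes (42.3%) against 3.56% of all genes tested that have a promoter. Counted by promoter, 36.4% of the 33 promoters of these genes held it, against 3.44% of the 32851 promoters in the table. The 11 genes were Eif2ak2, Gbp3, Ifih1, Ifit1, Ifit3, Irgm1, Oas3, Phf11a, Rsad2, Stat2 and Trim30a. The gamma-activated site TTCNNNGAA was found for 4 of the 26 (15.4%), Adar, Eif2ak2, Ifi35 and Isg20, against 8.18% of all genes tested. Its share of all promoters in the table was 8.3%. No match of one motif overlapped a match of the other in these genes. A match describes the letters in this window and is not evidence of binding.

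The following stretches lie before the start site and surround the match in genes whose signals were described across the groups, with the matched letters in capitals. Phf11a rose at both steps, Gbp3 fell, and Ifit3, Oas3 and Ifit1 differed between arrays of 1 group. Matches on the opposite strand read as 2 copies of TTTC here.
Phf11a, chr14:59297523-59297576, minus strand: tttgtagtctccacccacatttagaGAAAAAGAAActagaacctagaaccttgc
Gbp3, chr3:142559980-142560039, plus strand: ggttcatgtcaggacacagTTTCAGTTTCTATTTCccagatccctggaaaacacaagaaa
Ifit3, chr19:34583382-34583441, plus strand: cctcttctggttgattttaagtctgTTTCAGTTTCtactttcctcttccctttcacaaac
Oas3, chr5:120777700-120777759, minus strand: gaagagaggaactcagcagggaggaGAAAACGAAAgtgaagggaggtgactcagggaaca
Ifit1, chr19:34640779-34640838, plus strand: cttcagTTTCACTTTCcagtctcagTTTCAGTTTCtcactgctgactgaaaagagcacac
The nearest match lay 29 bases before the start in Phf11a, 39 in Gbp3, 75 in Oas3, 85 in Ifit1 and 122 in Ifit3. In Gbp3 a pair of matches share bases and form the longer run of capitals. The motif thus stood in front of a gene that rose (Phf11a) and of one that fell (Gbp3) between the same cells.

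Across the arrays the mean log2 signal of the 36 genes was 5.98 ± 0.11 (SD, n = 3) in Zeb2hi CDPs, 6.43 ± 0.23 (SD, n = 3) in Zeb2low CDPs and 6.96 ± 0.39 (SD, n = 2) in pre-CD8 DCs. By array it was 5.85, 6.05 and 6.02 in Zeb2hi CDPs, 6.19, 6.64 and 6.46 in Zeb2low CDPs, and 7.24 and 6.68 in pre-CD8 DCs. The groups did not overlap in this mean, although pre-CD8 DC array 2 stood only just above Zeb2low array 2. With each array centred on its median, Zeb2low array 1 (6.06) lay below Zeb2hi arrays 2 (6.16) and 3 (6.12). The median of the 36 genes overlapped between the later groups, at 6.43 on pre-CD8 DC array 2 and 6.71 on Zeb2low array 2. The median log2 signal of all genes tested ran between 6.23 and 6.46 per array. Group means climbed in the order Zeb2hi, Zeb2low, pre-CD8 for 25 of the 36 genes (69.4%) against 20.7% of all genes tested, and fell in that order for 3 (8.33% against 22.2%). The highest mean was in pre-CD8 DCs for 30 genes (83.3% against 28.6%). Ifit1 and Mx2 are among both the 25 and the 30, and their low Zeb2hi level was built in by the filter. The comparisons share arrays, so these orders are descriptions and not separate tests.

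**Figure D1:**
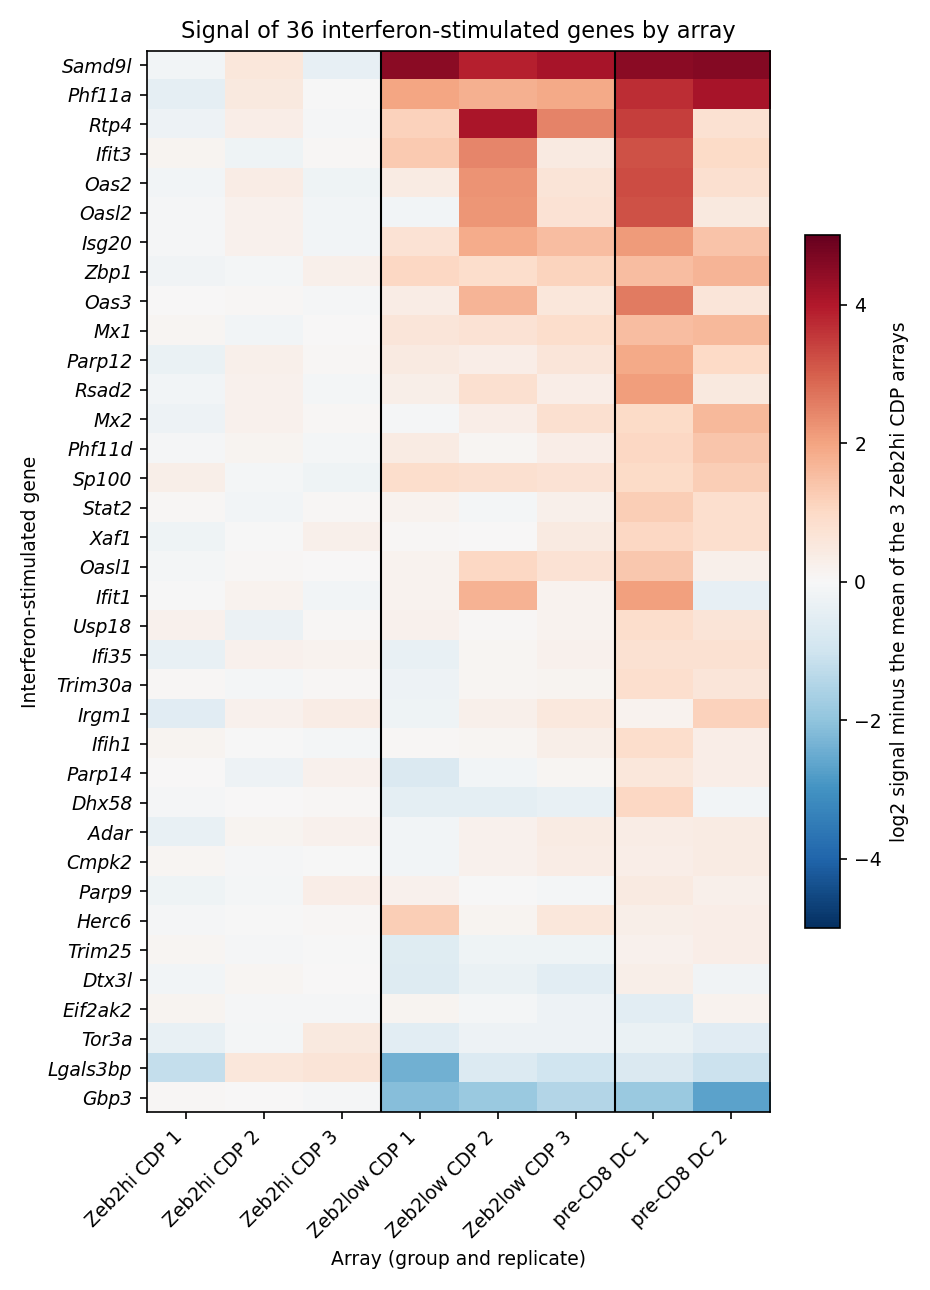
Heat map of the 36 interferon-stimulated genes (rows, ordered by the difference between pre-CD8 DCs and Zeb2hi CDPs) on the 8 arrays (columns, by group). Colour is the log2 signal minus the gene's mean over the 3 Zeb2hi CDP arrays: Samd9l and Phf11a are high on all 5 Zeb2low and pre-CD8 DC arrays, Gbp3 is low on them, and the OAS and IFIT rows are highest on Zeb2low array 2 and pre-CD8 DC array 1.

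Between Zeb2low and Zeb2hi CDPs, 6 of the 36 genes rose and 1 fell past the test (limma on log2 values, all 8 arrays in 1 fit, Benjamini-Hochberg adjusted p under 0.05 over all genes tested). Over all genes 4.5% rose and 10.3% fell. The median difference of the 36 genes was 0.23 on the log2 scale against 0.03 for all genes, and 27 of the 36 differences were above 0. The arrays of the groups did not overlap for 15 genes higher and 4 lower in Zeb2low CDPs, against 20.2% and 21.5% of all genes. Ifit1 is among the 15, and its low Zeb2hi level was built in by the filter. The genes that rose were Samd9l (probe set 10542911), Phf11a (10420483), Isg20 (10554240), Zbp1 (10490150), Sp100 (10347948) and Mx1 (10441233), and Gbp3 (10496580) fell. Same-numbered arrays of the CDP fractions deviated together. With that number as a block in a fit of the 6 CDP arrays alone, 12 of 34 genes tested rose and 4 fell. Of all 13129 genes tested in that fit 1521 (11.6%) rose and 2551 fell. Without Zeb2hi array 2 or 3 the count of genes that rose was 3, and the share of all genes that rose was 1.26% and 1.29%. Without Zeb2hi array 1 the count that fell was 2, where 1421 of all 13288 genes tested fell. Centring each array on its median left 6 genes higher and 2 lower, with 371 higher and 2233 lower among all genes in place of 601 and 1377. The median of all genes was then -0.14, and with quantile normalization the split was 665 and 960.

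From Zeb2low CDPs to pre-CD8 DCs the interferon-stimulated genes lay higher in 31 of 36 cases, with a median log2 difference of 0.60 against -0.03 for all genes. A single gene, Phf11a, passed the test upward and none downward, and few genes of the whole table passed in this comparison either (0.337% higher and 0.217% lower). The arrays of 19 genes lay higher in pre-CD8 DCs without overlap, and those of 0 lay lower, where 12.4% and 15.4% of all genes did so. The count that rose was 0 without Zeb2low array 2 or 3 or pre-CD8 DC array 1, and with the replicate block over all arrays. It was 2 without pre-CD8 DC array 2 and 3 with centring or quantile normalization. Centring gave 60 higher and 23 lower among all genes in place of 45 and 29.

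Pre-CD8 DCs against Zeb2hi CDPs gave the widest contrast, with 13 of 36 genes higher and 1 lower past the test, where 6.51% of all genes rose and 11.1% fell. The median log2 difference was 0.81 against -0.02 for all genes, and 32 differences were above 0. Arrays did not overlap for 27 genes higher and 1 lower, against 21.4% and 27.1% of all genes. The genes that rose were Samd9l, Phf11a, Isg20, Zbp1, Mx1, Parp12, Mx2, Phf11d, Sp100, Stat2, Xaf1, Usp18 and Trim30a. Gbp3 fell here as well. For Mx2 a low Zeb2hi level was built into the filter, so its place among the 13 and the 27 is no evidence of a rise. Leaving out pre-CD8 DC array 2 gave 22 genes higher, with 7% of all genes, and leaving out array 1 gave 9, with 3.58%. Either omission leaves a lone pre-CD8 DC array, which is assumed to vary like the other groups, and this holds for every value given without one of them. Leaving out 1 CDP array gave 10 to 14 genes higher.

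**Figure D2:**
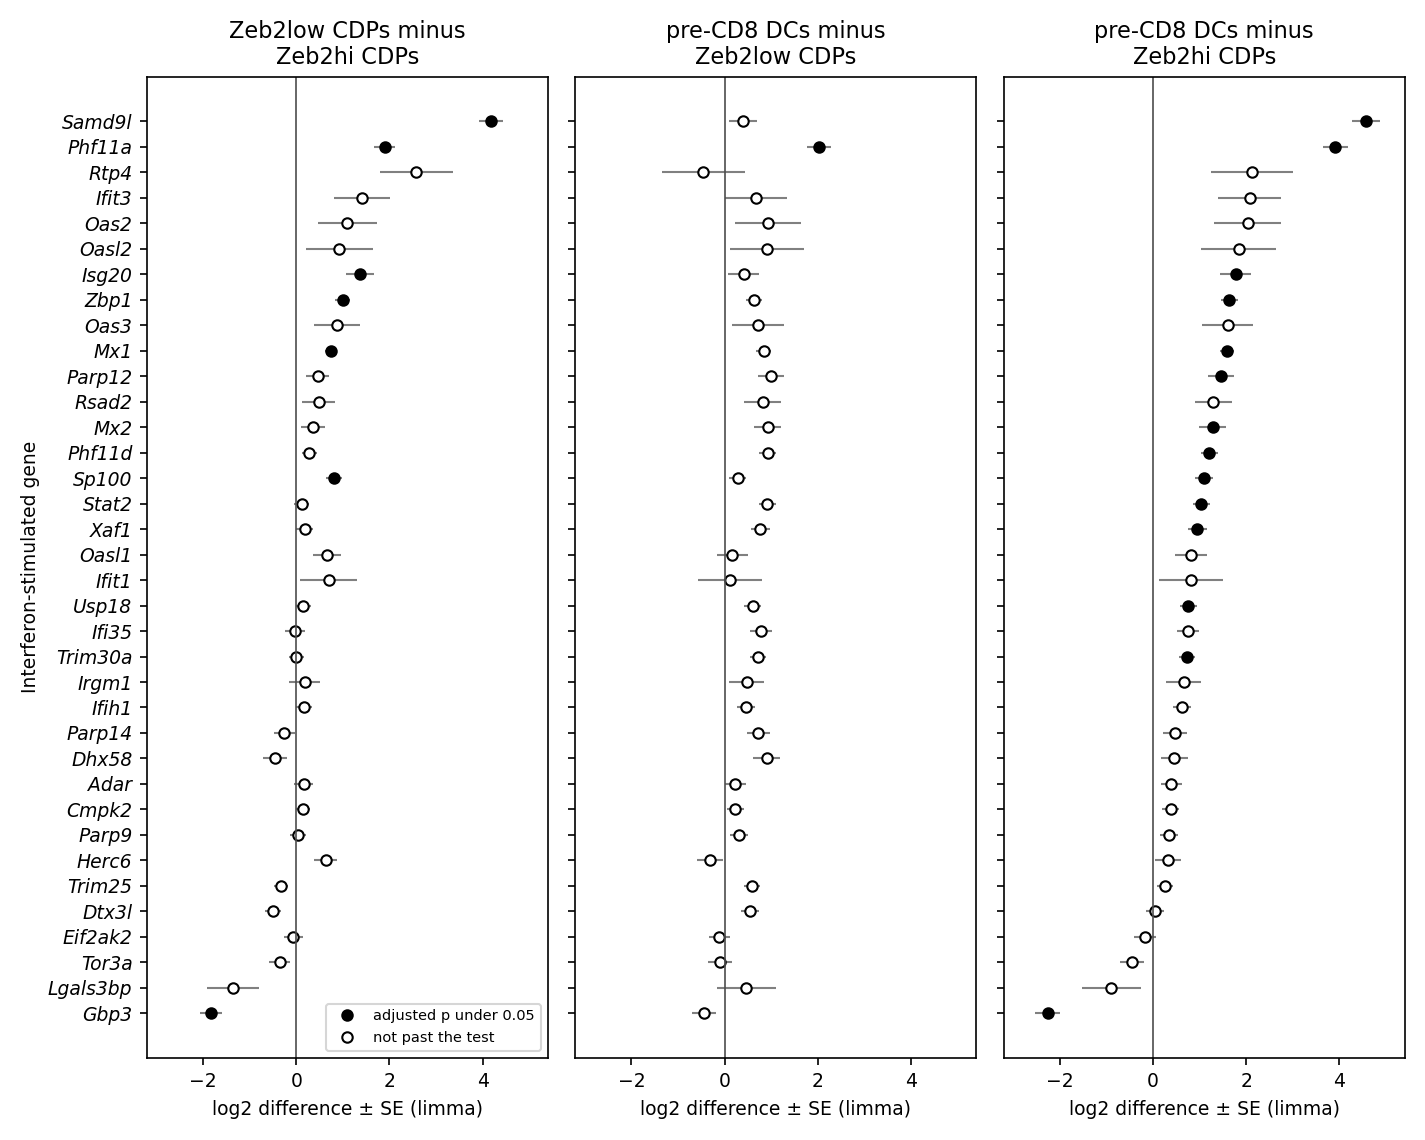
Log2 differences of the 36 genes (rows, in the same order as the heat map) in the 3 comparisons (panels), with bars for limma's standard error and filled points for genes past the test. Samd9l (4.18 and 4.57) lies farthest to the right and Gbp3 (-1.82 and -2.26) farthest to the left in the comparisons with Zeb2hi CDPs, and wide bars mark the OAS and IFIT genes.

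Mature neutrophil markers differed between the groups, and how far they bear on the results given here was not tested. The mean log2 signal of 12 markers was 8.82, 9.71 and 7.83 on the Zeb2hi arrays, 9.82, 11.67 and 10.68 on the Zeb2low arrays, and 11.98 and 9.87 on the pre-CD8 DC arrays. Summed, the markers reached log2 signals of 13.4 to 14.4, 14.6 to 15.6 and 14.9 to 15.8 in the same order. From Zeb2hi to Zeb2low CDPs 4 of the 12 rose (S100a8, Ngp, Lcn2 and Wfdc21), and in pre-CD8 DCs 5 were above Zeb2hi CDPs. Lcn2 and Ngp were each called in 1 of the 8 fits that left out 1 array. In bulk samples fewer cells of a type and less RNA per cell cannot be told apart. With the mean of these markers as a covariate, 3 of the 36 interferon-stimulated genes rose from Zeb2hi to Zeb2low CDPs and 6 from Zeb2hi CDPs to pre-CD8 DCs, and Gbp3 fell in both. The shares of all genes that rose were smaller in that fit too, at 2.54% (4.5% without the covariate) and 2.45% (6.51% without it). Of the markers of the labelled cells, 5 of 9 cDC1 markers tested rose from Zeb2hi to Zeb2low CDPs and 7 of 9 in pre-CD8 DCs over Zeb2hi CDPs. Of 9 plasmacytoid DC markers tested, 5 rose in Zeb2low CDPs. Tlr3 and Xcr1 of the cDC1 list and Ccr9 of the plasmacytoid DC list passed the filter through no Zeb2hi array. A low level in Zeb2hi CDPs was thus built into their selection, and they are no evidence of a rise. Of 8 CDP markers, 2 were higher and 3 lower in pre-CD8 DCs than in Zeb2hi CDPs. Of 9 monocyte and macrophage markers, 1 fell in Zeb2low CDPs and 2 in pre-CD8 DCs against Zeb2hi CDPs. Over all genes 4.5% rose and 10.3% fell in Zeb2low CDPs, and 6.51% rose and 11.1% fell in pre-CD8 DCs, both against Zeb2hi CDPs. Of 5 T, NK and ILC markers tested, 2 (Thy1 and Cd3e) rose in both comparisons with Zeb2hi CDPs, and Thy1 had mean log2 signals of 5.67, 7.89 and 7.51. Of 6 B cell markers, 2 (Cd22 and Cd79a) rose and 1 (Cd79b) fell in both, and Cd22 had means of 5.15, 7.33 and 7.76. Cd79a passed the filter through 3 arrays, none of them from Zeb2hi CDPs, so its low level there was built in. Of 4 erythroid and megakaryocyte markers, 1 (Itga2b) was higher in pre-CD8 DCs than in Zeb2hi CDPs. Car1 of that list did not pass, at means of 4.26, 6.36 and 7.24. The part of these cell types in the results was not tested. Arrays of 1 group correlated at r = 0.937 (the pre-CD8 DC arrays) to 0.989 across genes.

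The MX proteins are dynamin-like GTPases that trap viral nucleoproteins. Mx1 had log2 signals of 5.30, 5.09 and 5.23 in Zeb2hi CDPs, 5.83, 5.95 and 6.08 in Zeb2low CDPs, and 6.76 and 6.81 in pre-CD8 DCs. The 3 groups formed separate steps with little spread inside each. The first step was 0.75 ± 0.14 (SE, adjusted p = 0.0108) and the whole distance to pre-CD8 DCs 1.58 ± 0.15 (adjusted p = 0.000523), a 2.99-fold higher signal. The second step of 0.83 ± 0.15 did not pass (adjusted p = 0.0618), and passed with centring (adjusted p = 0.0435) or quantile normalization (adjusted p = 0.047). The first step missed the threshold when Zeb2hi array 2 (0.0596) or 3 (0.0502) was left out, with the adjusted p in parentheses, and with the neutrophil covariate (0.052), under which its size was 0.77. Mx2 stood at 3.79, 4.28 and 4.10, then 4.0, 4.39 and 4.86, then 5.01 and 5.67 in the same order of arrays. Both pre-CD8 DC arrays of Mx2 lay above all others, but all 3 Zeb2hi arrays were below the percentile used in the filter, so no test against them is given.

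Among the nucleic acid sensors and RNA modifiers, 3 of 8 genes tested rose from Zeb2hi to Zeb2low CDPs (Phf11a, Isg20 and Zbp1), and Phf11d joined them in pre-CD8 DCs over Zeb2hi CDPs. Zbp1 senses Z-form nucleic acid and can start necroptosis. Its log2 signals were 5.28, 5.33 and 5.70 in Zeb2hi CDPs, 6.46, 6.31 and 6.54 in Zeb2low CDPs, and 7.0 and 7.14 in pre-CD8 DCs. No array of a later group overlapped an earlier one. Zbp1 rose by 1.0 ± 0.16 (SE, adjusted p = 0.00655) in Zeb2low CDPs, a 2.00-fold difference, and by 1.64 ± 0.18 (adjusted p = 0.000931) in pre-CD8 DCs over Zeb2hi CDPs. The step between Zeb2low CDPs and pre-CD8 DCs was 0.63 ± 0.18 and did not pass (adjusted p = 0.181). With the neutrophil covariate both calls stood (adjusted p = 0.015 and 0.00474).

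Phf11a is a PHD finger gene of a cluster of interferon-inducible paralogs, and Phf11d is a neighbour in that family. Phf11a signals were 4.58, 5.5 and 5.00 in Zeb2hi CDPs, 7.01, 6.82 and 6.93 in Zeb2low CDPs, and 8.73 and 9.14 in pre-CD8 DCs. The groups stood far apart from each other relative to the spread inside them. The rise was 1.90 ± 0.23 at the first step (SE, adjusted p = 0.00281, 3.72-fold) and 2.02 ± 0.26 at the second (adjusted p = 0.0158, 4.05-fold). Over the whole distance the signal was 15.1-fold higher (3.91 ± 0.26, adjusted p = 7.44e-05). The second step missed the threshold when Zeb2low array 2 (adjusted p = 0.0587) or 3 (0.0814) or pre-CD8 DC array 1 (0.068) or 2 (0.0522) was left out, and with a block on the replicate number in the fit of all arrays (0.0605). Phf11d was at 4.58, 4.78 and 4.55, then 5.06, 4.74 and 4.95, then 5.66 and 6.02. It rose from Zeb2hi CDPs to pre-CD8 DCs by 1.21 ± 0.18 (adjusted p = 0.00335), and its second step of 0.92 ± 0.18 did not pass (adjusted p = 0.0753) except with centring, quantile normalization or a trended prior. Probe sets of close paralogs can share sequence, so the signals of Phf11a and Phf11d are not fully independent measures.

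Isg20, an exonuclease that degrades RNA, had signals of 4.94, 5.19 and 4.83 in Zeb2hi CDPs, 5.71, 6.83 and 6.51 in Zeb2low CDPs, and 7.10 and 6.43 in pre-CD8 DCs. The Zeb2hi arrays lay below all others, while Zeb2low and pre-CD8 DC arrays overlapped. Isg20 rose by 1.36 ± 0.29 (SE, adjusted p = 0.0193) in Zeb2low CDPs and by 1.78 ± 0.33 (adjusted p = 0.0082) in pre-CD8 DCs, both over Zeb2hi CDPs. The first call went when Zeb2hi array 2 (adjusted p = 0.0589) or 3 (0.0799) or Zeb2low array 2 (0.0547) or 3 (0.063) was left out, and with the neutrophil covariate, which gave 0.66 (0.129). The second went without pre-CD8 DC array 1 (adjusted p = 0.0591) and with the covariate, which gave 1.0 (adjusted p = 0.0736). The other sensors passed in no comparison. They were Ifih1 (MDA5) and Dhx58 (LGP2), which recognise viral RNA, Eif2ak2 (PKR), which halts translation, and Adar, which edits double-stranded RNA.

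Samd9l, a restriction factor of poxviruses and a regulator of haematopoietic growth, had the largest difference of the 36 genes. Its log2 signals were 4.63, 5.36 and 4.36 in Zeb2hi CDPs, 9.28, 8.68 and 8.91 in Zeb2low CDPs, and 9.31 and 9.39 in pre-CD8 DCs. The jump lay between the CDP fractions, and the pre-CD8 DC arrays were level with the highest Zeb2low array. The signal was 18.1-fold higher in Zeb2low than in Zeb2hi CDPs (4.18 ± 0.26, SE, adjusted p = 0.00018) and 23.7-fold higher in pre-CD8 DCs (4.57 ± 0.29, adjusted p = 7.44e-05). Between Zeb2low CDPs and pre-CD8 DCs the difference was 0.39 ± 0.29 (adjusted p = 0.599). With the neutrophil covariate the first call stood (adjusted p = 0.00362).

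**Figure D3:**
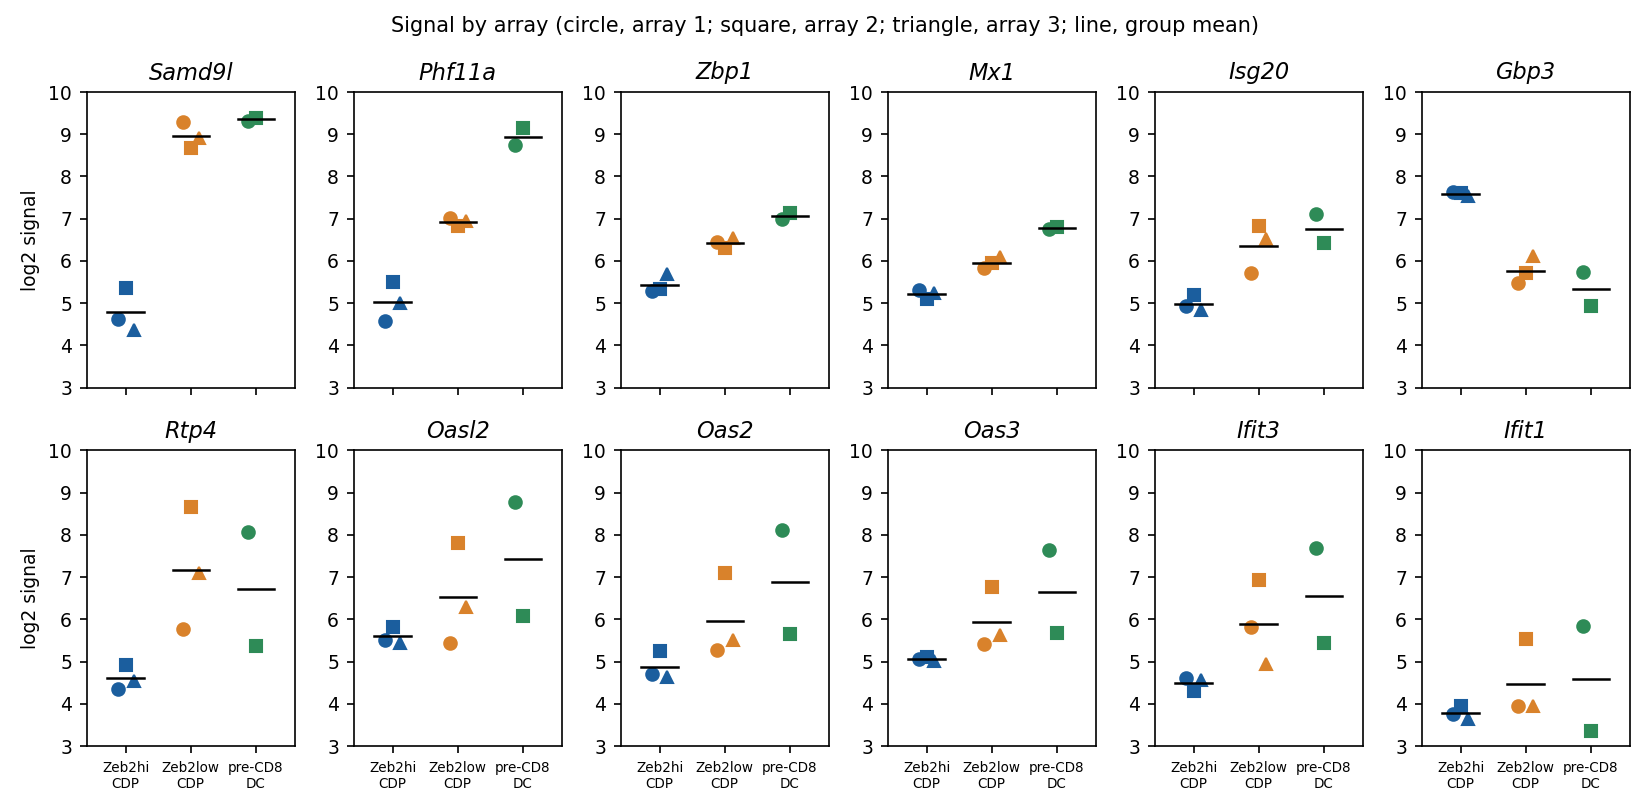
Log2 signal (vertical axes) of 12 interferon-stimulated genes on each array, by group, with a bar for each group mean. Samd9l jumps between the CDP fractions (18.1-fold), Phf11a climbs at both steps, Gbp3 falls, and genes such as Rtp4 and Oas2 differ between arrays of 1 group.

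Gbp3 ran the other way. It codes for a guanylate-binding protein, a family of GTPases best known as targets of interferon gamma that act on intracellular pathogens. Gbp3 signals were 7.64, 7.6 and 7.54 in Zeb2hi CDPs, 5.47, 5.72 and 6.12 in Zeb2low CDPs, and 5.73 and 4.93 in pre-CD8 DCs. All Zeb2hi arrays lay above all others, and the Zeb2low and pre-CD8 DC arrays overlapped. The signal was 3.54-fold lower in Zeb2low CDPs (-1.82 ± 0.23, SE, adjusted p = 0.00312) and 4.80-fold lower in pre-CD8 DCs (-2.26 ± 0.26, adjusted p = 0.0012) than in Zeb2hi CDPs. With the neutrophil covariate both calls stood (adjusted p = 0.00769 and 0.0044). Irgm1, an immunity-related GTPase and the other gene of this group with a usable probe set, passed in no comparison, and its arrays ran from 6.07 to 7.79 with overlap between all groups.

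Of the signalling group and the genes of mixed role, Sp100, a component of PML nuclear bodies, had signals of 8.84, 8.43 and 8.31 in Zeb2hi CDPs, 9.42, 9.33 and 9.27 in Zeb2low CDPs, and 9.49 and 9.75 in pre-CD8 DCs. The groups did not overlap. Sp100 rose by 0.81 ± 0.17 (SE, adjusted p = 0.0177) in Zeb2low CDPs and by 1.09 ± 0.19 (adjusted p = 0.00674) in pre-CD8 DCs, both over Zeb2hi CDPs. The first of these went when Zeb2hi array 2 (adjusted p = 0.0797) or 3 (0.0803) or Zeb2low array 2 (0.0516) was left out, and with the covariate (0.062), under which its size was 0.89. Stat2, a part of ISGF3, stood at 7.07, 6.89 and 7.08, then 7.21, 6.94 and 7.25, then 8.25 and 7.84. CDP fractions overlapped for Stat2, and both pre-CD8 DC arrays lay above them. Stat2 rose from Zeb2hi CDPs to pre-CD8 DCs by 1.03 ± 0.18 (adjusted p = 0.00694), and did not pass with the covariate at a size of 1.03 (adjusted p = 0.0582).

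Parp12, an ADP-ribosyltransferase that restricts RNA viruses, was at 5.09, 5.69 and 5.48, then 5.89, 5.74 and 6.03, then 7.33 and 6.43. Its difference between pre-CD8 DCs and Zeb2hi CDPs was 1.46 ± 0.28 (SE, adjusted p = 0.00923) and fell to 1.09 with the covariate (adjusted p = 0.11). The other genes of the PARP group, Parp9, Parp14 and Dtx3l, passed in no comparison. Xaf1, a pro-apoptotic factor, rose by 0.95 ± 0.20 (adjusted p = 0.0149) from Zeb2hi CDPs to pre-CD8 DCs. Usp18, which removes ISG15 from proteins and damps receptor signalling, rose by 0.76 ± 0.19 (adjusted p = 0.0242). Trim30a, a negative regulator of innate signalling, rose by 0.72 ± 0.17 (adjusted p = 0.0227). These 3 smaller calls were lost without Zeb2hi array 2 (Xaf1 adjusted p = 0.0544, Usp18 0.0796, Trim30a 0.0843) and without pre-CD8 DC array 1 (0.0822, 0.125 and 0.117). Those of Usp18 (adjusted p = 0.0672) and Trim30a (adjusted p = 0.0646) were lost without Zeb2hi array 3 too. With the covariate none of the 3 passed, at sizes of 0.99 for Xaf1 (adjusted p = 0.0854), 0.84 for Usp18 (0.105) and 0.57 for Trim30a (0.195), and the block over all arrays took the Trim30a call (adjusted p = 0.0543).

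Some genes lay lower in Zeb2low CDPs without passing the test. Lgals3bp, a secreted glycoprotein, had signals of 7.08, 8.84 and 8.93 in Zeb2hi CDPs, 5.87, 7.59 and 7.30 in Zeb2low CDPs, and 7.58 and 7.20 in pre-CD8 DCs. Array 1 was the lowest of each CDP fraction, so the fractions overlapped. The difference of -1.36 ± 0.56 (SE, adjusted p = 0.132) passed when Zeb2hi array 1 was left out (0.0311) and with the replicate block on the CDP arrays alone (0.00143). Dtx3l, a ubiquitin ligase that pairs with Parp9, was at 6.99, 7.25 and 7.16, then 6.47, 6.79 and 6.62, then 7.41 and 6.95. Its Zeb2low arrays lay below all others. The Dtx3l difference of -0.50 ± 0.17 (adjusted p = 0.0803) passed with the same block (0.0218), with array weights (0.0147) and with centring (0.0387). Dhx58 stood at 5.26, 5.33 and 5.38, then 4.84, 4.83 and 4.95, then 6.36 and 5.19, so that its Zeb2low arrays were the lowest as well. It differed by -0.45 ± 0.26 between the CDP fractions (adjusted p = 0.254), and passed with the block (0.0307) or when pre-CD8 DC array 1 (0.0454) or 2 (0.0455) was left out. Herc6, the mouse ligase that attaches ISG15, stood at 5.45, 5.49 and 5.57, then 6.73, 5.62 and 6.07, then 5.78 and 5.85. Its difference of 0.64 ± 0.25 between the CDP fractions (adjusted p = 0.117) passed when Zeb2low array 2 was left out (0.0443). Trim25, a ligase that acts on the RNA sensor RIG-I, ran from 7.37 to 8.28 over the 8 arrays and passed in no comparison. The same held for Ifi35 (7.0 to 8.15), Tor3a (6.34 to 7.38) and Cmpk2 (5.72 to 6.27), a mitochondrial nucleotide kinase next to Rsad2.

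A set of 8 genes differed between arrays of the same group. They were picked after their values were seen, by a signal at least 1 log2 unit higher on pre-CD8 DC array 1 than on array 2 together with a maximum on array 2 within the Zeb2low group. The rule held for Rtp4, Oasl2, Ifit1, Oas2, Ifit3, Oas3, Rsad2 and Oasl1, which are 22.2% of the 36 genes, and for 4.12% of all genes. OAS enzymes make the messenger that activates RNase L, IFIT proteins bind foreign RNA, Rsad2 (viperin) produces an antiviral nucleotide, and Rtp4 binds and inhibits replication complexes. Oasl1 and Oasl2 are OAS-like proteins. All 4 OAS family genes followed here and both IFIT genes past the filter were in this set.

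Rtp4 had signals of 4.35, 4.92 and 4.54 in Zeb2hi CDPs, 5.77, 8.67 and 7.10 in Zeb2low CDPs, and 8.07 and 5.38 in pre-CD8 DCs. Oasl2 ran at 5.52, 5.83 and 5.44, then 5.44, 7.82 and 6.30, then 8.77 and 6.09. Oas2 was at 4.71, 5.24 and 4.63, then 5.27, 7.10 and 5.51, then 8.12 and 5.66. In all 3 genes the Zeb2hi arrays were low and close together, while single arrays of the later groups lay several fold apart. For Ifit3 the values were 4.61, 4.29 and 4.57, then 5.81, 6.92 and 4.95, then 7.69 and 5.44. Oas3 stood at 5.07, 5.10 and 5.00, then 5.42, 6.76 and 5.63, then 7.64 and 5.67. Ifit3 and Oas3 were highest on pre-CD8 DC array 1 and next highest on Zeb2low array 2. Oasl1 ran at 5.64, 5.78 and 5.77, then 5.90, 6.78 and 6.47, then 7.09 and 6.0. Rsad2 was at 4.51, 4.83 and 4.55, then 4.92, 5.45 and 4.97, then 6.71 and 5.14. For Ifit1 the arrays gave 3.75, 3.94 and 3.65, then 3.95, 5.53 and 3.95, then 5.83 and 3.35, close to the floor except on those arrays. The gap between the pre-CD8 DC arrays ran from 1.09 (Oasl1, 2.13-fold) to 2.69 (Rtp4, 6.47-fold). Averaged over the 8 genes, the arrays read 4.77, 4.99 and 4.77 in Zeb2hi CDPs, 5.31, 6.88 and 5.61 in Zeb2low CDPs, and 7.49 and 5.34 in pre-CD8 DCs. The other 28 genes averaged 6.16, 6.36 and 6.38, then 6.45, 6.58 and 6.70, then 7.16 and 7.07.

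**Figure D4:**
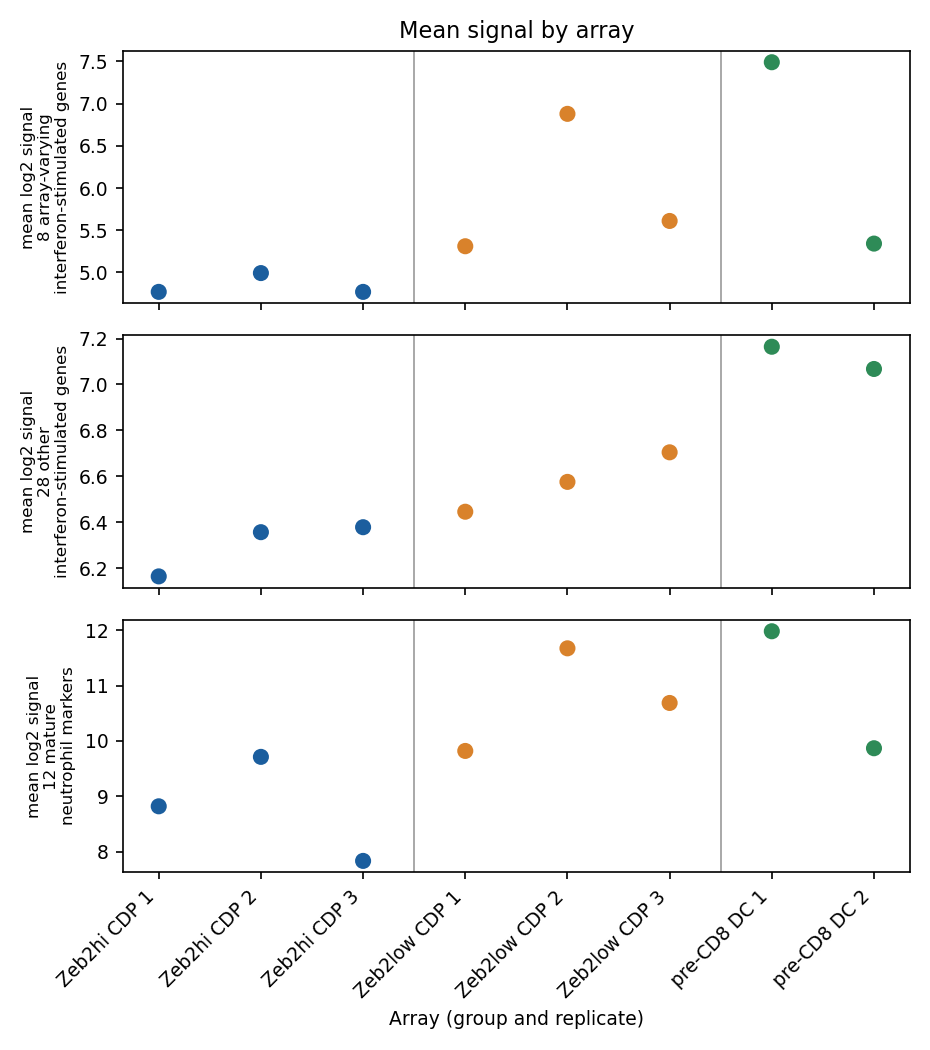
Mean log2 signal on each of the 8 arrays for the 8 genes that differ between arrays of 1 group, the other 28 interferon-stimulated genes and 12 mature neutrophil markers. The 8 genes were picked as high on Zeb2low array 2 (6.88) and pre-CD8 DC array 1 (7.49), so their peaks there are built in. The neutrophil markers were highest on these arrays too (11.67 and 11.98). The other 28 genes, left after that choice, read 7.16 and 7.07 on the pre-CD8 DC arrays.

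None of the 8 genes passed in any comparison of the main fit, although several mean differences were large. Rtp4 differed between Zeb2low and Zeb2hi CDPs by 2.58 ± 0.79 (SE, adjusted p = 0.0597) and Ifit3 by 1.41 ± 0.60 (adjusted p = 0.142). From Zeb2hi CDPs to pre-CD8 DCs Ifit3 differed by 2.07 ± 0.67 (adjusted p = 0.0647), Oas2 by 2.03 ± 0.72 (adjusted p = 0.0856) and Rsad2 by 1.29 ± 0.40 (adjusted p = 0.0547). Without pre-CD8 DC array 2 all 8 passed in the latter comparison, which follows from the choice of genes that are high on the array that is left. Ifit3 passed there without Zeb2low array 2 (adjusted p = 0.0451), and Rsad2 with array weights (adjusted p = 0.04135). Array weights also gave calls for Rtp4 (adjusted p = 0.00379) and Oasl1 (0.017) between the CDP fractions, where 13.5% of all genes then rose. Rtp4 passed in that comparison with only these groups fitted (adjusted p = 0.0292) and with the stricter filter (0.04999). Between the CDP fractions Rtp4 passed when Zeb2low array 1 (adjusted p = 0.0304) or pre-CD8 DC array 1 (0.0294) or 2 (0.0295) was left out. With the replicate block over the CDP arrays alone Rtp4 (adjusted p = 0.00424), Oas2 (adjusted p = 0.0162), Oasl1 (adjusted p = 0.0271), Rsad2 (adjusted p = 0.0283), Ifit3 (adjusted p = 0.0306) and Oas3 (adjusted p = 0.0353) passed.

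Neutrophil markers followed the same arrays. Of the 12 markers, 7 met the rule that picked these 8 genes (Retnlg, Ltf, Mmp8, Mmp9, Cxcr2, Wfdc21 and Ly6g), with pre-CD8 DC gaps of 1.42 (Wfdc21) to 4.37 (Mmp9). With the marker mean as a covariate the difference between Zeb2low and Zeb2hi CDPs was -0.56 for Oas2, -0.91 for Oasl2, -0.79 for Ifit1, 0.32 for Ifit3 and 0.59 for Rtp4, and none of these passed (adjusted p between 0.257 and 0.77). Leaving out Zeb2low array 2 and pre-CD8 DC array 1 together left Rtp4 at 1.83 (adjusted p = 0.0306), Ifit3 at 0.89 (adjusted p = 0.0781) and Oas2 at 0.53 (adjusted p = 0.163) between the CDP fractions. The 8 genes were picked as high on Zeb2low array 2 and pre-CD8 DC array 1, where the marker mean was highest too. Smaller differences in both of these fits thus follow from the choice. The part of neutrophil RNA in these array differences was not tested.

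Of 10 genes for receptors and signalling molecules of the pathway, 1 rose (Jak2) and 1 fell (Il10rb) in Zeb2low CDPs, where 4.5% and 10.3% of all genes did. The fall of Il10rb, a chain of the type III interferon and interleukin 10 receptors, was called in 2 of the 8 fits that left out 1 array. None passed from Zeb2low CDPs onward, and 3 were higher in pre-CD8 DCs than in Zeb2hi CDPs, where 6.51% of all genes rose. Jak2, a kinase of the interferon gamma receptor, had signals of 7.53, 7.30 and 7.20, then 8.91, 8.28 and 8.50, then 8.69 and 8.85. Jak2 rose by 1.22 ± 0.19 (SE, adjusted p = 0.00579) in Zeb2low CDPs and by 1.42 ± 0.21 (adjusted p = 0.00317) in pre-CD8 DCs over Zeb2hi CDPs. Tyk2, a kinase of the type I receptor, rose by 1.39 ± 0.23 (adjusted p = 0.0051) in pre-CD8 DCs over Zeb2hi CDPs, and missed the threshold with the neutrophil covariate at a size of 1.14 (adjusted p = 0.0646). The type I receptor chains Ifnar1 and Ifnar2 passed in no comparison, with log2 signals of 7.31 to 7.96 and of 9.33 to 10.39 over the 8 arrays. Irf9, the DNA-binding partner of Stat2, did not pass either, at 6.45 to 7.99.

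Genes for the interferons themselves gave no calls. Of 16 with a probe set of their own, 8 passed the filter and 0 of these passed the limma test in any comparison. At an unadjusted limma p under 0.05 there was 1 gene between the CDP fractions (Ifna5, adjusted p = 0.112), 0 between pre-CD8 DCs and Zeb2low CDPs, and 2 between pre-CD8 DCs and Zeb2hi CDPs (Ifnl2 and Ifnk, adjusted p = 0.0921 and 0.112). Ifnb1 stayed below the 40th percentile on all 8 arrays, between 3.01 and 3.50. The deposited values carry no detection call, so such a signal does not show expression.

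Of 8 interferon regulatory factors tested, 1 was higher in Zeb2low CDPs and 4 in pre-CD8 DCs, both over Zeb2hi CDPs, against 4.5% and 6.51% of all genes. The other 4 factors did not pass in these comparisons. Irf7, which amplifies interferon responses, had signals of 5.4, 5.56 and 5.63, then 6.24, 6.92 and 6.96, then 8.35 and 7.63. Irf7 rose by 1.17 ± 0.25 (SE, adjusted p = 0.0176) at the first step and by 2.46 ± 0.28 (adjusted p = 0.00107) over the whole distance. The former went when Zeb2hi array 2 (adjusted p = 0.0691) or 3 (0.0605) or Zeb2low array 2 (0.0557) or 3 (0.0601) was left out, and with the covariate (0.136), which gave 0.74. Irf5, a mediator of Toll-like receptor signals, rose by 1.95 ± 0.31 (adjusted p = 0.00466) from Zeb2hi CDPs to pre-CD8 DCs. With the covariate the size for Irf5 was 1.46 and missed the threshold (adjusted p = 0.0585). Irf4, a factor of the other classical DC branch, is 1 of the 4 counted but passed the filter only through the pre-CD8 DC arrays, so its difference was built in. It stood at 3.83, 4.09 and 3.61, then 4.6, 4.21 and 4.44, then 5.05 and 5.19.

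Of 38 further interferon-inducible genes tested, 3 rose and 4 fell in Zeb2low CDPs, 1 rose from there to pre-CD8 DCs, and 9 rose and 2 fell from Zeb2hi CDPs to pre-CD8 DCs. Over all genes 4.5% rose and 10.3% fell, 0.337% rose, and 6.51% rose and 11.1% fell in the same order, so the share of this list that fell in Zeb2low CDPs was near that of all genes. Slfn5, a Schlafen family gene, was at 3.30, 3.31 and 3.44, then 4.07, 5.07 and 4.57, then 7.01 and 6.92. Slfn5 passed the filter through 4 arrays, none of them from Zeb2hi CDPs, so its low level there, and its place in both counts against those cells, was built in. It rose by 2.39 ± 0.26 between Zeb2low CDPs and pre-CD8 DCs (SE, adjusted p = 0.00725). This call went when pre-CD8 DC array 1 was left out (0.068), with only those groups in the fit (0.0758) and with a block on the replicate number (0.0508). The genes that fell in Zeb2low CDPs were the immunoproteasome subunits Psmb8 and Psmb9 and the guanylate-binding proteins Gbp5 and Gbp7. Psmb8 fell by 1.19 on the log2 scale (SE 0.19, adjusted p = 0.00631), at 9.84, 9.79 and 10.11 in Zeb2hi CDPs and 8.84, 8.65 and 8.69 in Zeb2low CDPs. On the pre-CD8 DC arrays Psmb8 was back at 9.94 and 9.32. Psmb9 (-1.45 ± 0.40, adjusted p = 0.0431) lost its call without Zeb2hi array 2 or 3 or any 1 of the Zeb2low arrays (adjusted p between 0.0675 and 0.152). Gbp5 passed the filter only through the 3 Zeb2hi arrays, at 5.14, 4.6 and 5.20, so a lower level elsewhere was built into its call. Its Zeb2low arrays read 3.61, 4.08 and 4.21. Gbp7 (-1.24 ± 0.32, adjusted p = 0.0326) missed the threshold when Zeb2hi array 1 (0.0778), 2 (0.0661) or 3 (0.116) or Zeb2low array 1 (0.0722) or 3 (0.0835) was left out.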

How the data were processed

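Cells were sorted from bone marrow and their RNA amplified by a whole-transcriptome kit for very small amounts, then put on Affymetrix arrays, as the labels' protocols say. The deposited values are linear intensity values of 28853 probe sets on 8 arrays; per the submitters' processing notes, Affymetrix Expression Console and RMA were used. Versions, and the build behind the annotation, are not given in the sources. RMA gives no detection call, so differences near the floor are understated. The number of arrays limits the precision.

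In the platform annotation 21789 probe sets have 1 gene, 1621 several and 5443 none used here. A probe set of 1 gene was kept if 2 or more arrays exceeded their own 40th percentile, and the one with the highest mean stood for its gene. The log2 intensities entered limma 3.58.1 (R 4.3.3; lmFit, eBayes, two-sided) with all 8 arrays in 1 fit, which has 5 residual degrees of freedom. P-values were adjusted by Benjamini-Hochberg within each comparison over 13356 genes at a threshold of 0.05. Groups and replicate numbers came from sample titles. A value after ± with a difference is limma's standard error. The fit was tested on simulated data.

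The interferon-stimulated genes and all other lists were chosen with earlier results of these data known. Array values are printed for genes past the test with a log2 difference of at least 1 and for Zbp1, Samd9l and Mx1. They are also given for Sp100, for some genes that vary between arrays and for some of other lists, chosen after their values were seen. From the other lists, up to 3 genes past the test with the largest differences could be named.

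Deviations from the group means were shared by same-numbered Zeb2hi and Zeb2low arrays (r = 0.478, 0.407 and 0.308 across genes). Differently numbered arrays of these fractions ran from -0.42 to 0.14. Same-numbered CDP arrays were therefore treated as pairs in the blocked fit. The highest r of all was between Zeb2low array 2 and pre-CD8 DC array 1 (0.587), so shared deviations were not limited to equal numbers. The labels attach no meaning to the numbers, so this pairing rests on the values alone. Pre-CD8 DC array 1 had r = -0.17 with Zeb2hi and -0.40 with Zeb2low array 1, and array 2 had -0.31 and -0.59 with arrays 2. In a group of 2 arrays the deviations mirror each other (r = -1), so these arrays are not separate evidence. The values thus gave no ground for the block over all arrays. Alternatives were the filter, quantile normalization, centring, array weights, the replicate block, probe set averaging, a trended prior, the groups fitted and leaving out each array. A neutrophil covariate, and omission of Zeb2low array 2 with pre-CD8 DC array 1, were added after seeing the data. Promoters came from RefSeq.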

Additional observations from a re-analysis of the deposited data

How the results depend on the processing

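Between Zeb2low and Zeb2hi CDPs the median difference of the interferon-stimulated genes was 0.23, and became 0.069 with centring and 0.10 with the neutrophil covariate. Between pre-CD8 DCs and Zeb2hi CDPs it was 0.81, and became 0.45 with the covariate. Median differences of the interferon-stimulated genes stayed above 0 in all fits run. With each array left out in turn they ran from 0.14 to 0.34 between Zeb2low and Zeb2hi CDPs, from 0.32 to 0.75 between pre-CD8 DCs and Zeb2low CDPs, and from 0.61 to 0.99 between pre-CD8 DCs and Zeb2hi CDPs. Counts of genes higher ran from 3 to 7, 0 to 2 and 9 to 22, and counts lower from 1 to 2, 0 to 0 and 1 to 1 in the same order.

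Between Zeb2low and Zeb2hi CDPs the count lower was 1, and became 2 with centring, 3 with array weights and 2 with only these groups fitted. Among all genes the count lower was 1377, and became 2233, 2669 and 1477 in the same order. A replicate block in the fit of the CDP arrays alone gave 12 higher and 4 lower, and one in the fit of all arrays gave 6 and 1. Among all genes the former gave 1521 higher and 2551 lower, and the latter 422 and 1130. Between pre-CD8 DCs and Zeb2low CDPs the count higher was 1. It became 3 with quantile normalization, 3 with centring, 2 with a trended prior and 0 with the replicate block. Among all genes that count was 45, and became 46, 60, 51 and 10 in the same order. Without Zeb2low array 2 and pre-CD8 DC array 1 the median difference of the interferon-stimulated genes was 0.31.

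With the neutrophil covariate 3 genes were higher in Zeb2low than in Zeb2hi CDPs, and 6 in pre-CD8 DCs than in Zeb2hi CDPs, where 2.54% and 2.45% of all genes were (4.5% and 6.51% without it). Differences that changed sign under it were, between the CDP fractions, Oas2 (-0.56), Oas3 (-0.28), Oasl1 (-0.018), Oasl2 (-0.91), Ifit1 (-0.79) and Rsad2 (-0.34), and between pre-CD8 DCs and Zeb2hi CDPs Oasl2 (-0.18), Ifit1 (-0.83) and Rtp4 (-0.071). All of these genes belong to the 8 picked as high on Zeb2low array 2 and pre-CD8 DC array 1. The marker mean was highest on the same arrays, so a shift downward follows from that choice. None of these differences had passed the test, and the cause was not tested. Samd9l, Zbp1, Phf11a and Gbp3 between the CDP fractions passed in all fits run.

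With 3, 3 and 2 arrays, smaller differences could not be called, and a p that missed the threshold does not show equal levels. Ifit1, Ifit2 and Mx2 lie near the floor. Paralogs can share probe sequence.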
